A study of Homo sapiens with 12 samples.

Results

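The comparison described here is the difference between 2 responses to gambogenic acid (GNA), a xanthonoid from gamboge resin, in A549/DDP, a cisplatin-resistant derivative of the A549 lung adenocarcinoma line. One response was measured in cells carrying a short hairpin RNA against NRF2 (shNRF2) and the other in cells carrying a control hairpin (shNC). The 4 groups, with 3 libraries each, were shNRF2 cells in 4 µM GNA, shNRF2 cells in DMSO, shNC cells in 4 µM GNA and shNC cells in DMSO, all for 24 h from 70% confluence. The medium of all 12 cultures contained cisplatin (DDP) at 1 µg/ml, so no group was free of it. The labels do not say whether a hairpin population is 1 clone, which hairpin sequence was used, or whether libraries of a group are separate cultures. The spread behind each p-value is therefore that of these 3 libraries a group, and it may be technical. Every gene passing a count filter was a member: 15653 of the 61510 genes in the files. The value for a gene is its log2 change with GNA in shNRF2 minus its log2 change with GNA in shNC, fitted with edgeR's quasi-likelihood test. The threshold for a call was 0.05 on the Benjamini-Hochberg adjusted p.

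NRF2, encoded by NFE2L2, is a transcription factor that KEAP1 marks for degradation and that electrophiles and oxidants release to switch on detoxifying and glutathione genes. HSF1 is the transcription factor of the heat shock response, which raises chaperones that refold proteins when unfolded protein accumulates. HMOX1, which breaks down heme, and SQSTM1, an autophagy adaptor, are known targets of NRF2 and also respond to other stress factors.

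NFE2L2 itself checked the hairpin. It had 46.2, 47.5 and 43.6 CPM in shNRF2 GNA libraries and 47.9, 49.4 and 53.3 CPM in shNRF2 DMSO libraries. In shNC, NFE2L2 had 89, 83 and 90.2 CPM with GNA and 81.6, 77.8 and 74.4 CPM with DMSO. Both shNRF2 groups lay below both shNC groups, and the difference of responses was -0.30 ± 0.09 (SE, adjusted p = 0.045). That call is marginal: it was kept in 3 of the 12 fits that left out 1 library, and was lost with limma on log2 FPKM and with the replicate block (adjusted p = 0.066).

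Of the 15653 genes, 1068 (6.82%) were called: 561 (3.58%) had a higher response in shNRF2 and 507 (3.24%) a lower one, with a median difference over all genes of -0.0048. With library totals as the only scaling the split was 414 higher and 674 lower, since that scaling shifted the differences by a median of -0.039. The libraries held 12848607 to 17192671 counts. Of the 1068 calls, 510 were made in all 12 fits without 1 library. Replicate 1 of shNC DMSO stood apart, its counts departing from those of replicates 2 and 3 by 8.02 and 6.29 times the degrees of freedom (chi-square). Pairs within the other 3 groups gave 2.28 to 5.30 times. Epithelial keratins KRT8, KRT18 and KRT7 were high in all groups, the keratin KRT19 stayed at or below 0.152 CPM and the adhesion molecule EPCAM at 1.96 to 3.68 CPM. E-cadherin, CDH1, had 29.8 to 73.9 CPM and a lower response in shNRF2, called also in 4 of the 12 fits without 1 library. The 10 alveolar type 2 markers summed to 35.3 to 38.4 CPM in shNRF2 GNA, 20.6 to 24.3 CPM in shNRF2 DMSO, 22 to 28.6 CPM in shNC GNA and 16.2 to 21.8 CPM in shNC DMSO, and their part in the results was not tested. Among these alveolar markers ABCA3 had 13.6 to 27.5 CPM and LAMP3 1.06 to 11.8 CPM, and only these 2 passed the count filter. SFTPA1, SFTPA2, SFTPB, SFTPC, SFTPD, NAPSA, NKX2-1 and SLC34A2 each stayed at or below 0.397 CPM. The 14 fibroblast, endothelial and leukocyte markers summed to 8.09 to 10.6 CPM per library.

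The difference of responses equals the end difference between the lines (shNRF2 minus shNC in GNA) minus the start difference (shNRF2 minus shNC in DMSO), so each called gene can be placed by those levels. The start difference was called for 5508 genes (35.2%; 16.8% higher and 18.3% lower in shNRF2) and the end difference for 4090 (26.1%; 12.8% higher and 13.3% lower). The most frequent pattern among the 1068 genes was a start difference that was no longer called under GNA: 479 genes, 256 with a higher and 223 with a lower response. A further 239 genes differed at the end and not at the start (124 higher, 115 lower). In 160 genes a called difference narrowed (75 higher, 85 lower), in 70 it widened (16 higher, 54 lower), and in 105 it crossed over, with called differences of opposite sign (81 higher, 24 lower). In 15 genes neither difference was called. A missed call is not equality: the 95% interval of the end difference lay within 0.5 (log2, a band set after the values were seen) of 0 in 429 of the 479, and that of the start difference in 194 of the 239. Leaving out replicate 1 of shNC DMSO raised the narrowed count to 277, and leaving out replicate 2 of shNC GNA lowered the end-only count to 141. Without replicate 1 or 2 of shNRF2 DMSO the start-only count was 300 and 304. The crossed count ran from 75 to 115 over the 12 such fits.

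**Figure D1:**
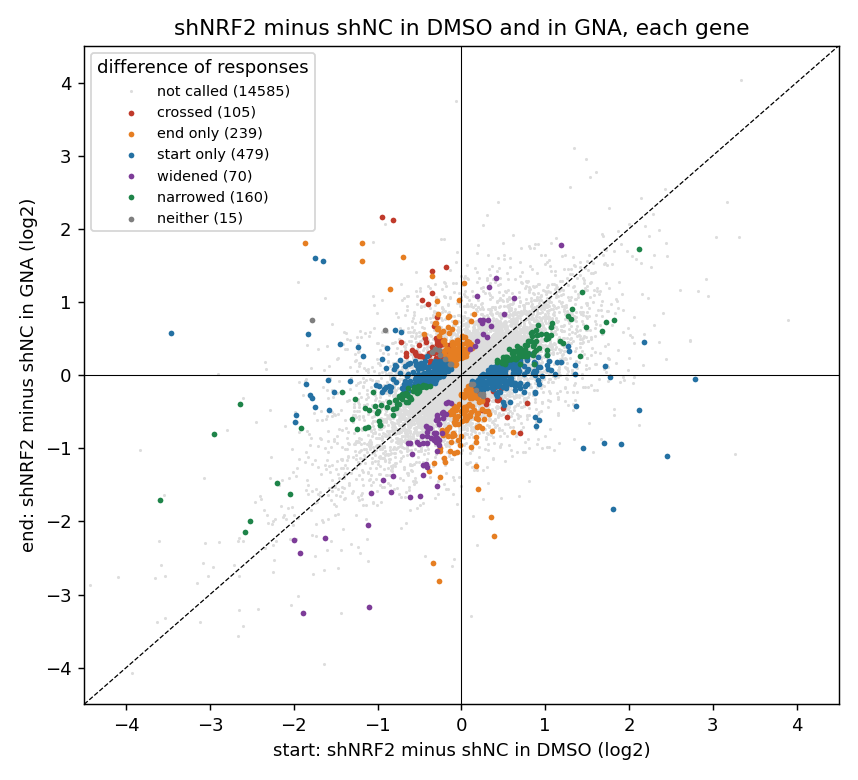
Each dot is 1 of the 15653 genes, with the shNRF2 minus shNC difference in DMSO on the x axis and in GNA on the y axis (log2); the dashed line is equal start and end, and 13 uncalled genes lie outside the axes. Colours mark the 6 level classes of the 1068 called genes; the 105 crossed genes lie at the upper left and lower right.

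Chaperones were 20 of the 81 crossed genes with a higher response. The 5 chaperone lists held 73 tested genes, of which 42 had a higher and 3 a lower response in shNRF2, with a median difference of 0.27. As shares these were 57.5% and 4.11%, against 3.58% and 3.24% of all genes tested. In DMSO 42 of the 73 were lower in shNRF2 and 13 higher, and in GNA 37 were higher and 5 lower. Thus 20 of the 42 crossed over, 15 lost a start difference, 5 gained an end difference and 2 widened. HSP70 and HSP110 genes contributed 9 of 13, HSP90 and co-chaperones 11 of 16, J-domain proteins 9 of 24, small heat shock proteins and BAG genes 5 of 10, and chaperonins 8 of 10. The chaperonin count was 3 to 5 without any 1 library other than replicate 1 of shNC DMSO, replicate 1 of shNC GNA or replicate 3 of shNRF2 DMSO, was 4 with library totals only and was 3 with limma on log2 FPKM.

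HSPA1A, the stress-inducible HSP70, had 2063, 2406 and 2307 CPM in shNRF2 GNA libraries and 54.5, 58.8 and 61.6 CPM in shNRF2 DMSO libraries. In shNC, HSPA1A had 463, 505 and 548 CPM with GNA and 117, 112 and 109 CPM with DMSO. The 3 shNRF2 GNA libraries were highest and the 3 shNRF2 DMSO libraries lowest, with no overlap between any groups. The difference was 3.11 ± 0.09 (SE, adjusted p = 4.6e-19), from a start of -0.95 and an end of 2.16 (log2). Its near-identical copy HSPA1B differed by 2.94 ± 0.13 (SE, adjusted p = 1e-14), and reads may be shared between the copies. DNAJB1, an HSP40 partner of HSP70, had 499, 499 and 501 CPM in shNRF2 GNA libraries and 97.1, 96.4 and 103 CPM in shNRF2 DMSO libraries. In shNC, DNAJB1 had 175, 187 and 177 CPM with GNA and 104, 123 and 110.1 CPM with DMSO. Again the shNRF2 GNA libraries stood alone, and the difference was 1.66 ± 0.08 (SE, adjusted p = 1.8e-14). BAG3, a co-chaperone that couples HSP70 to autophagy, had 592, 561 and 579 CPM in shNRF2 GNA libraries and 118, 113 and 105 CPM in shNRF2 DMSO libraries. In shNC, BAG3 had 198, 224 and 224 CPM with GNA and 149.9, 131 and 147 CPM with DMSO. Its groups did not overlap and its difference was 1.77 ± 0.08 (SE, adjusted p = 1.8e-14).

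HSP90AA1, the inducible cytosolic HSP90, had 26541, 25662 and 25137 CPM in shNRF2 GNA libraries and 7399, 7314 and 8362 CPM in shNRF2 DMSO libraries. In shNC, HSP90AA1 had 13478, 13244 and 12612 CPM with GNA and 9581, 10550.0 and 10397 CPM with DMSO. The 2 DMSO groups were ordered opposite to the 2 GNA groups, and the difference was 1.38 ± 0.07 (SE, adjusted p = 8.1e-14). HSPH1, an HSP110 nucleotide exchange factor, differed by 1.48 ± 0.06 (SE, adjusted p = 4.9e-15). HSPA8, the constitutive HSP70, averaged 2762 ± 70.1 CPM in shNRF2 GNA and 1629 ± 59.9 CPM in shNRF2 DMSO, and 2306 ± 47.0 CPM in shNC GNA and 2319 ± 54.1 CPM in shNC DMSO (SD, n = 3 each). Its change with GNA was called in shNRF2 and not in shNC, and the difference was 0.77 ± 0.06 (SE, adjusted p = 7.5e-10). CHORDC1, an HSP90 partner, differed by 0.97 ± 0.07 (SE, adjusted p = 1.9e-10) and also crossed.

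**Figure D2:**
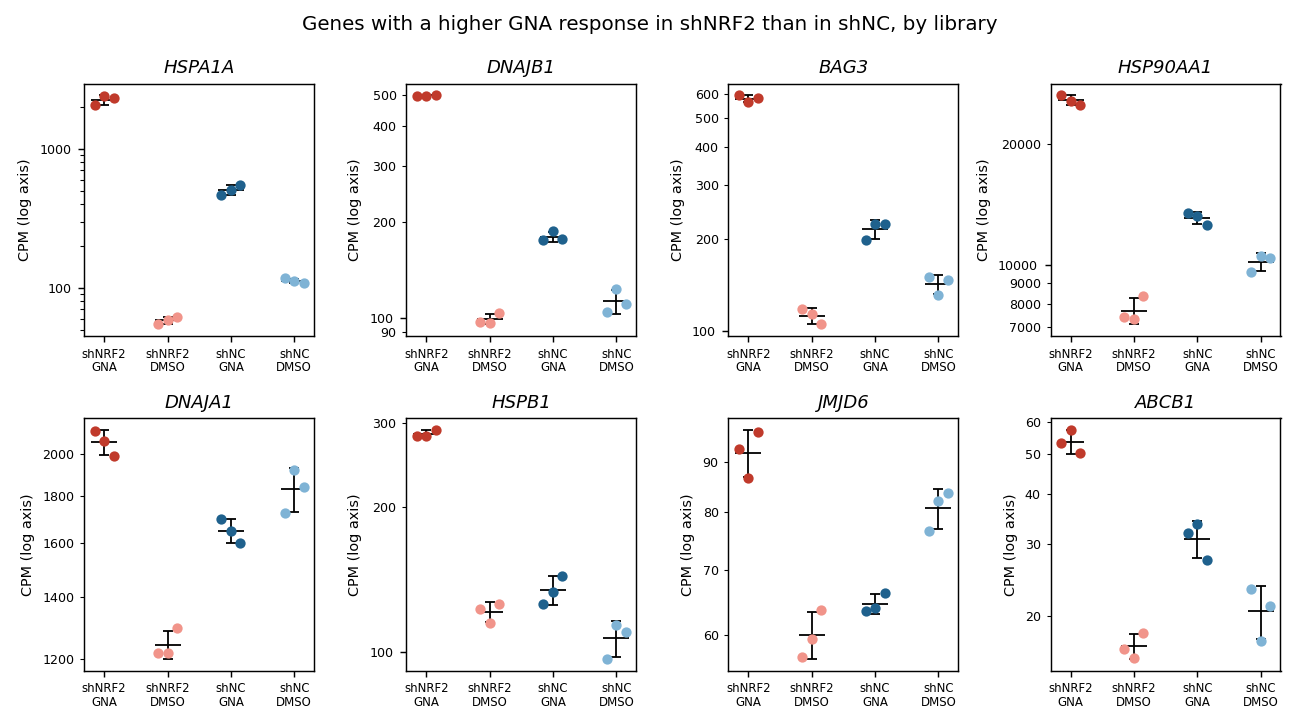
CPM (log axis) of 8 genes in each of the 12 libraries, 3 dots a group, with the mean as a bar and SD as error bars, for shNRF2 GNA, shNRF2 DMSO, shNC GNA and shNC DMSO from left to right. In all 8 genes the shNRF2 GNA libraries are highest, and in 7 (all but HSPB1) shNRF2 DMSO has the lowest mean.

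Some promoters of these genes hold the letters of a heat shock element, the inverted repeat that HSF1 binds. The RefSeq GRCh38.p14 promoter table (250 bases before to 50 after each gene's start) matched 11206 of the 15653 genes, 849 of the 1068 called. The heat shock letters were GAA, TTC and GAA, or TTC, GAA and TTC, each pair of blocks 2 bases apart, searched on both strands. They were present in 39 of the 11206 (0.348%) and in 7 of the 467 with a higher response (1.5%). They were also present in 4 of the 66 crossed with a higher response (6.06%) and in 2 of the 382 with a lower response (0.524%). The antioxidant response element core, TGAC and GC with 3 bases between, was present in 15.1% of all, 18.6% of those higher, 18 of the 66 crossed with a higher response (27.3%) and 16.2% of those lower. These are descriptions of letters and not of binding, and the windows of HSPA1A, HSPA1B, DNAJB1 and BAG3 held no match to the heat shock letters. The search allowed no mismatch, so an imperfect element was counted as absent. The HSPA1A and HSPA1B windows hold a stretch that departs from the letters only in its last base. The promoters of 5 genes follow, chosen because they hold a match and their genes are described here. Heat shock matches are in capitals, and the 3 overlapping matches of CHORDC1 form a continuous stretch.
HSPA6, chr1:161524290-161524589, plus strand: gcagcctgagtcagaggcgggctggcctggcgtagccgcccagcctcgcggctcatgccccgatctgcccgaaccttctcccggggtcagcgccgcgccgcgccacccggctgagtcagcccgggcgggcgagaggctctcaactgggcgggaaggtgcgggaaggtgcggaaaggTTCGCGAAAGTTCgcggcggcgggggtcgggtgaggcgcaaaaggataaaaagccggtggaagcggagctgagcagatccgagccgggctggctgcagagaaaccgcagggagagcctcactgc
CHORDC1, chr11:90223000-90223299, minus strand: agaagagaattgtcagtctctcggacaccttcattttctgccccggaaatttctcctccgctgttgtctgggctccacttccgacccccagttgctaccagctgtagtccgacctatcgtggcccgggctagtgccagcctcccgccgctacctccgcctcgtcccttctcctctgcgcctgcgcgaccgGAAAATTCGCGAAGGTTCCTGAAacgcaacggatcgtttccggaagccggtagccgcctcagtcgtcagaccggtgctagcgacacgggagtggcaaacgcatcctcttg
HSPA8, chr11:123062087-123062386, minus strand: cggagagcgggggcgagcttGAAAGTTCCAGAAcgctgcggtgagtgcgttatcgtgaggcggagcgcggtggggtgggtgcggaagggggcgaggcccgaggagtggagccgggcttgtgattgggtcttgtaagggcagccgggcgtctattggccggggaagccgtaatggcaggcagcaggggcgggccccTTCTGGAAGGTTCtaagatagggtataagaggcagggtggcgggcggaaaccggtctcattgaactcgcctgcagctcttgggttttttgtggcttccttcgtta
SERPINH1, chr11:75562003-75562302, plus strand: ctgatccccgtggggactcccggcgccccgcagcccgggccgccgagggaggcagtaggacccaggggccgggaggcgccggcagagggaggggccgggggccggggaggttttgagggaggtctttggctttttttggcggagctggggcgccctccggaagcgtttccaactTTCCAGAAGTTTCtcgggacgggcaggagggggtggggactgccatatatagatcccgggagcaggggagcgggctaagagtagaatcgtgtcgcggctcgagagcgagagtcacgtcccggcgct
DNAJA1, chr9:33025023-33025322, plus strand: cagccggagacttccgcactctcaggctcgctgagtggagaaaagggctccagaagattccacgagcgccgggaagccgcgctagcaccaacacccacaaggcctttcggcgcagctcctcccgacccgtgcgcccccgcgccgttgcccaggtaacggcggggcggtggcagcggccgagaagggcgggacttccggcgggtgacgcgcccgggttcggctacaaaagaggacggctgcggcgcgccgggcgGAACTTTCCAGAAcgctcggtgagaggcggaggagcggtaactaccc

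HSPA6, an HSP70 that is almost silent without stress, had 229.7, 219 and 223 CPM in shNRF2 GNA libraries and 0.128, 0 and 0.0767 CPM in shNRF2 DMSO libraries. In shNC, HSPA6 had 60.4, 65.1 and 66.5 CPM with GNA and 0.276, 0.184 and 0.066 CPM with DMSO. In DMSO it had 0 to 4 counts per library, so no fold is given, and the start level was not distinguishable at this depth. HSPA6 was called higher and end-only, but that call was lost in 3 of the 12 fits without 1 library (adjusted p = 0.068 to 0.13). Its gain in CPM was 224 in shNRF2 and 63.8 in shNC. SERPINH1, a collagen chaperone of the endoplasmic reticulum, averaged 91.0 ± 6.66 CPM in shNRF2 GNA and 29.5 ± 5.13 CPM in shNRF2 DMSO, and 39.3 ± 3.18 CPM in shNC GNA and 23.7 ± 0.385 CPM in shNC DMSO (SD, n = 3 each). Its difference widened by 0.88 ± 0.13 (SE, adjusted p = 6.1e-05), as did that of HSPB1, a small heat shock protein, by 0.90 ± 0.09 (SE, adjusted p = 5.7e-08). HSPB8, a partner of BAG3, differed by 1.63 ± 0.27 (SE, adjusted p = 0.00025) and had a called start difference and no called end difference. STUB1, an HSP70-bound ubiquitin ligase, FKBP5, an HSP90 co-chaperone, and BAG1, an HSP70 exchange factor, were the 3 members with lower responses, at -0.91, -0.34 and -0.51, and the call of FKBP5 was lost in 8 of the 12 fits without 1 library.

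Genes of protein degradation followed with smaller values. Of 38 proteasome genes, 21 had a higher response in shNRF2 and 0 a lower one, with a median of 0.31 and a range of -0.18 to 0.59. The 21 were 55.3% of the list, against 3.58% of all genes tested. In DMSO 29 of the 38 were lower in shNRF2 and 0 higher, and in GNA 8 were higher and 4 lower. With limma on log2 FPKM 13 were called higher. PSMD11, a lid subunit, differed by 0.59 ± 0.09 (SE, adjusted p = 9.5e-05), with a called start and no called end difference. PSMC4, an ATPase subunit, differed by 0.53 ± 0.08 (SE, adjusted p = 4.9e-05) and crossed. Of 29 autophagy and lysosome genes, 6 had a higher and 0 a lower response (median 0.17). Of those 6, 2 crossed, 2 lost a start difference and 2 narrowed. Among 20 ubiquitin genes and adaptors 6 were higher and 0 lower (median 0.13). GABARAPL1 and MAP1LC3B, autophagosome proteins, crossed as well, at 0.81 and 0.76.

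Some genes had a higher log2 response in shNRF2 from a lower start, and for these the 2 scales did not always give the same call. HMOX1 had 116, 121 and 126 CPM in shNRF2 GNA libraries and 16.2, 16.3 and 13 CPM in shNRF2 DMSO libraries. In shNC, HMOX1 had 133, 142 and 151 CPM with GNA and 36.2, 43.3 and 42.3 CPM with DMSO. Each shNRF2 group lay below the shNC group of the same treatment, without overlap, and the log2 difference was 1.19 ± 0.11 (SE, adjusted p = 5.3e-08). On the CPM scale the gain with GNA was 106 in shNRF2 and 102 in shNC, and the difference of gains, 4.38 ± 5.44 CPM (SE), was not called (limma adjusted p = 0.72). MYH14, a nonmuscle myosin heavy chain, had 40.8, 45.3 and 38.8 CPM in shNRF2 GNA libraries and 4.69, 2.37 and 3.14 CPM in shNRF2 DMSO libraries. In shNC, MYH14 had 50.7, 56.5 and 56.3 CPM with GNA and 21.7, 21.2 and 22 CPM with DMSO. Its log2 difference was 2.25 ± 0.17 (SE, adjusted p = 6.2e-10), while the gains were 38.2 and 32.9 CPM and their difference was not called (limma adjusted p = 0.23). SQSTM1 had 847, 884 and 874 CPM in shNRF2 GNA libraries and 313, 293 and 306 CPM in shNRF2 DMSO libraries. In shNC, SQSTM1 had 1064, 1119 and 1091 CPM with GNA and 689, 764 and 738 CPM with DMSO. Here both scales were called, with a log2 difference of 0.94 ± 0.06 (SE, adjusted p = 1.2e-10) and gains of 564 CPM in shNRF2 and 361 CPM in shNC (limma adjusted p = 0.00024). IGFN1 reversed between the scales, at 1.88 ± 0.28 (SE, adjusted p = 7.8e-05) in log2 but with gains of 5.98 CPM in shNRF2 and 13.7 CPM in shNC.

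Across the 1068 genes, 929 had a difference of CPM gains that was called with the same sign, 137 were not called on that scale, and 7 had the opposite sign, 2 of them called. The CPM scale called 1323 genes (8.45%; 4.6% higher and 3.85% lower), of which 392 were not called in log2. The sign was the same on both scales for all 239 end-only and 479 start-only genes. Start and end differences of opposite sign fix this in advance, as in all 105 crossed genes. It was also fixed for 100 of the 124 end-only genes with a higher response and 68 of the 115 with a lower one. Among start-only genes it was fixed for 138 of the 256 with a higher response and 117 of the 223 with a lower one.

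**Figure D3:**
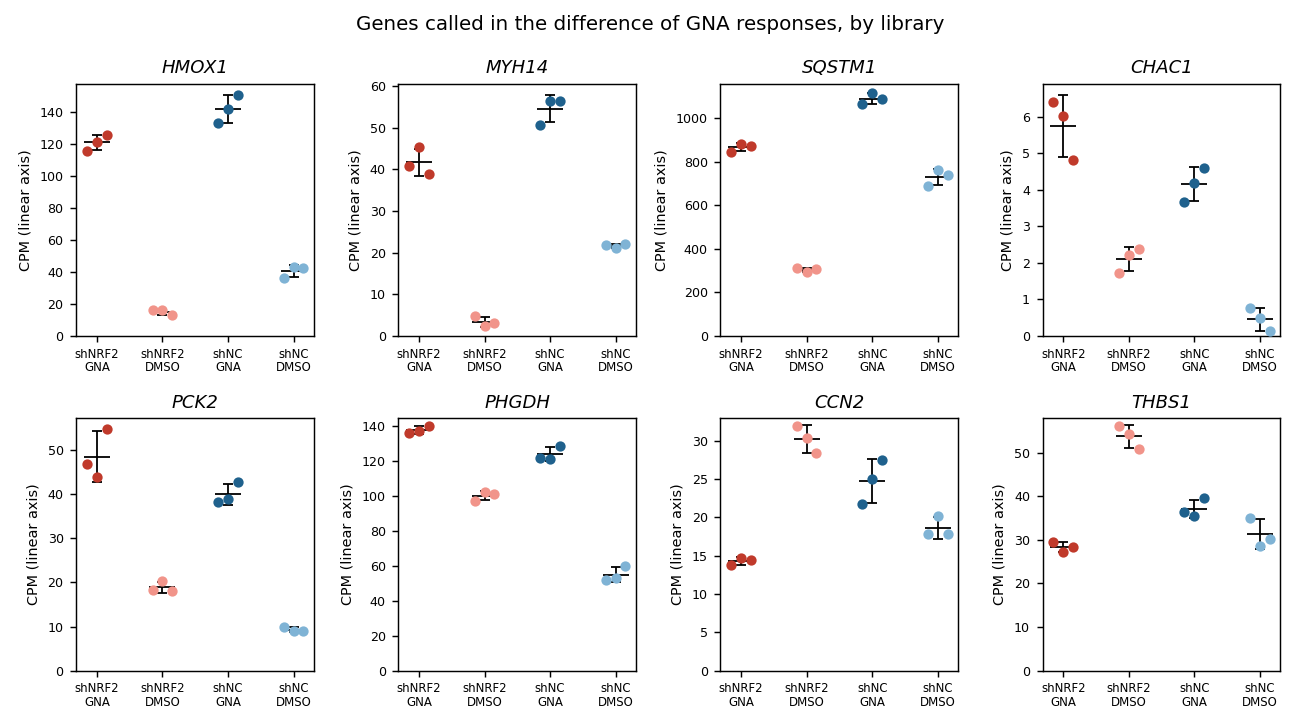
CPM (linear axis from 0) of 8 genes in each library, with the mean as a bar and SD as error bars, for shNRF2 GNA, shNRF2 DMSO, shNC GNA and shNC DMSO from left to right. HMOX1, MYH14 and SQSTM1 are below shNC in both treatments in shNRF2; CCN2 and THBS1 are above shNC in DMSO and below it in GNA.

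Integrated stress response genes, which ATF4 raises when translation initiation is restrained, ran the other way. Of 32 tested, 13 had a lower and 3 a higher response in shNRF2, with a median of -0.27. As shares these were 40.6% and 9.38%, against 3.24% and 3.58% of all genes tested. In DMSO 20 of the 32 were already higher in shNRF2 and 4 lower, and GNA raised 27 of the 32 in shNRF2 and 31 in shNC. Over all genes GNA raised 16.7% and lowered 17% in shNRF2, and raised 14.6% and lowered 16.1% in shNC. CHAC1, a glutathione-degrading enzyme, differed by -1.72 ± 0.43 (SE, adjusted p = 0.014), with 6.41, 6.02 and 4.80 CPM in shNRF2 GNA and 1.73, 2.22 and 2.38 CPM in shNRF2 DMSO. In shNC, CHAC1 had 3.67, 4.19 and 4.60 CPM with GNA and 0.758, 0.491 and 0.132 CPM with DMSO, those in DMSO from 2 to 11 counts. The log2 call was lost with limma on log2 FPKM (adjusted p = 0.077 and 0.18) and without replicate 3 of shNC DMSO (adjusted p = 0.067). Its gains were 3.63 and 3.70 CPM, and the difference of gains was not called (limma adjusted p = 0.98). SLC7A5, an amino acid transporter, differed by -0.95 ± 0.21 (SE, adjusted p = 0.0065). SLC7A5 was not called by limma on log2 FPKM (adjusted p = 0.12 and 0.13) or by DESeq2 (adjusted p = 0.067). PHGDH, PSAT1 and PCK2, enzymes of serine synthesis and gluconeogenesis, were chosen after their values were seen. PHGDH had 136, 137 and 139.7 CPM in shNRF2 GNA libraries and 97.1, 102 and 101 CPM in shNRF2 DMSO libraries. In shNC, PHGDH had 121, 121 and 129 CPM with GNA and 52, 52.7 and 60 CPM with DMSO. Its lines were apart in DMSO and close in GNA, and it differed by -0.71 ± 0.08 (SE, adjusted p = 1.4e-06). PSAT1 differed by -0.65 ± 0.08 (SE, adjusted p = 2.5e-06) and crossed. PCK2 differed by -0.74 ± 0.13 (SE, adjusted p = 0.00078), but its gains were 29.6 CPM in shNRF2 and 30.7 CPM in shNC. On the CPM scale 7 of the 32 had a lower and 6 a higher gain. NIBAN1, a stress-induced gene, differed by 0.92 ± 0.09 (SE, adjusted p = 6.1e-08) and DDIT3, which encodes CHOP, by 0.13 ± 0.12 (SE, adjusted p = 0.62), not called in log2. The gains of DDIT3 were 70.0 CPM in shNRF2 and 37.7 CPM in shNC, and their difference of 32.2 ± 3.17 CPM (SE) was called (limma adjusted p = 1.9e-07).

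CCN2, a matricellular protein and YAP target, had 13.7, 14.8 and 14.5 CPM in shNRF2 GNA libraries and 31.9, 30.4 and 28.4 CPM in shNRF2 DMSO libraries. In shNC, CCN2 had 21.7, 25 and 27.4 CPM with GNA and 17.8, 20.2 and 17.8 CPM with DMSO. It fell with GNA in shNRF2 and rose in shNC, and the difference was -1.49 ± 0.14 (SE, adjusted p = 2.7e-08). THBS1, thrombospondin, had 29.5, 27.2 and 28.4 CPM in shNRF2 GNA libraries and 56.1, 54.1 and 50.9 CPM in shNRF2 DMSO libraries. In shNC, THBS1 had 36.3, 35.3 and 39.5 CPM with GNA and 35.1, 28.5 and 30.1 CPM with DMSO. Its order of lines also reversed, with a difference of -1.17 ± 0.11 (SE, adjusted p = 6.2e-08), and CCN1 differed by -0.78 ± 0.11 (SE, adjusted p = 3.8e-05). Of 28 YAP target and matrix genes, 8 had a lower response and 1, ANKRD1 at 0.55, a higher one, with a median of -0.13. The shares were 28.6% lower and 3.57% higher, against 3.24% and 3.58% of all genes tested. Among 23 immediate early genes 5 were lower (21.7%) and 1 higher (4.35%), IER5 at 0.59. NR4A1, an orphan nuclear receptor, differed by -1.15 ± 0.10 (SE, adjusted p = 9.2e-09), with 54.7, 54.3 and 57.0 CPM in shNRF2 GNA and 87.7, 86.9 and 80.5 CPM in shNRF2 DMSO. In shNC, NR4A1 had 44.8, 46.3 and 46.8 CPM with GNA and 35.5, 31.6 and 28.7 CPM with DMSO, so it fell in shNRF2 and rose in shNC. EGR1, a zinc finger factor, averaged 91.3 ± 2.18 CPM in shNRF2 GNA and 123 ± 13 CPM in shNRF2 DMSO, and 80.3 ± 5.19 CPM in shNC GNA and 54.0 ± 3.95 CPM in shNC DMSO (SD, n = 3 each), and its difference was called (adjusted p = 1.4e-07).

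Proliferation genes fell with GNA in both lines, some of them further in shNRF2. Of 29 mitosis genes, 29 fell in shNRF2 and 28 in shNC, and 12 had a lower response in shNRF2 with 0 higher (median -0.36). The 12 were 41.4% of the list, against 3.24% of all genes tested. In DMSO 13 of the 29 were higher in shNRF2 and 2 lower, and in GNA 0 were higher and 7 lower. Of the 12, 8 lost a start difference, 3 gained an end difference and 1 crossed. CENPF, a kinetochore protein, differed by -0.64 ± 0.08 (SE, adjusted p = 2.3e-06), and TOP2A, a topoisomerase, by -0.57 ± 0.07 (SE, adjusted p = 2.1e-06). The count of 12 was 7 without replicate 2 of shNC DMSO, replicate 2 or 3 of shNRF2 DMSO, or replicate 1 of shNRF2 GNA. Of 32 replication genes 7 (21.9%) had a lower and 0 a higher response (median -0.24), 11 on the CPM scale, but 2 to 4 were called without any 1 library other than replicates 1 and 2 of shNC GNA. In DMSO 14 of the 32 were higher in shNRF2 and 2 lower, and in GNA 3 were higher and 4 lower. Of the 7, 5 lost a start difference, 1 gained an end difference and 1 narrowed. Of 13 mitochondrially encoded mRNAs 6 (46.2%) had a lower response and 0 a higher one (median -0.29). The lower count was 1 with limma on log2 FPKM and 13 without replicate 1 of shNC DMSO. The mitochondrial share of that library was 5.98%, against 4.71% and 4.95% in the other 2 libraries of its group.

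**Figure D4:**
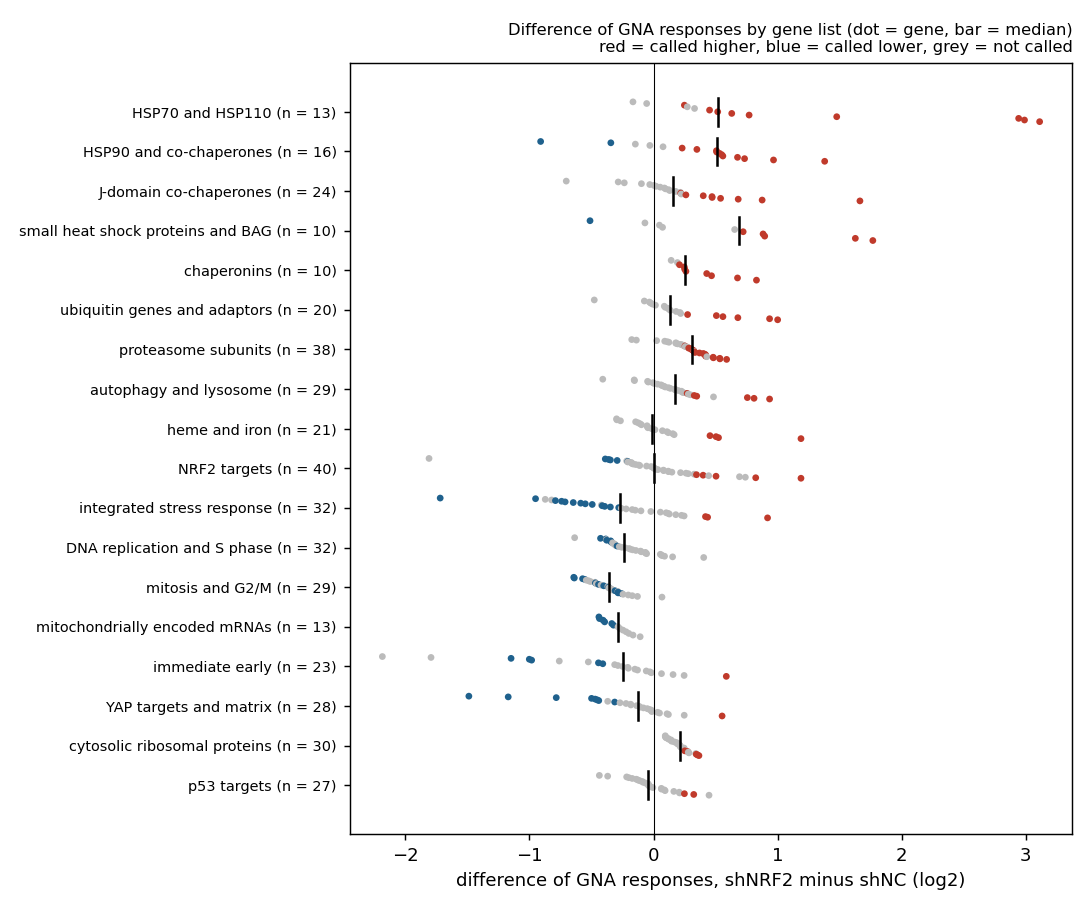
Each dot is a gene of 1 of 18 lists, placed by its difference of GNA responses (log2, shNRF2 minus shNC), with red called higher, blue called lower, grey not called and the bar at the median. The 5 chaperone lists and the proteasome list lie mainly right of 0, and the mitosis list left of it.

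In 77 genes (0.492% of those tested) GNA changed the lines in opposite directions, with both responses and their difference called: 39 rose in shNRF2 and fell in shNC, and 38 fell in shNRF2 and rose in shNC. Of the 39, 11 were on the chaperone lists, among them HSP90AB1, STIP1 and TCP1. DNAJA1, an HSP40 protein, had 2119, 2064 and 1989 CPM in shNRF2 GNA libraries and 1217, 1219 and 1295 CPM in shNRF2 DMSO libraries. In shNC, DNAJA1 had 1699, 1651 and 1603 CPM with GNA and 1725, 1922 and 1844 CPM with DMSO. It rose in shNRF2 and fell in shNC, with a difference of 0.88 ± 0.06 (SE, adjusted p = 4.3e-10). JMJD6, a lysyl hydroxylase, had 92.8, 86.7 and 96.6 CPM in shNRF2 GNA libraries and 57.1, 59.5 and 63.7 CPM in shNRF2 DMSO libraries. In shNC, JMJD6 had 63.6, 64 and 66.3 CPM with GNA and 76.6, 82.1 and 83.8 CPM with DMSO. The 2 lines changed places, with a difference of 0.94 ± 0.09 (SE, adjusted p = 4.3e-08). CACYBP, an HSP90 partner, differed by 0.73 ± 0.07 (SE, adjusted p = 1.8e-07). The count of 77 was 47 without replicate 2 of shNC DMSO and 48 without replicate 1 of shNRF2 GNA. Some large opposite calls had uneven libraries. AKAP17A had 16.6, 66.4 and 14.3 CPM in shNRF2 GNA, 23.8, 107 and 180 CPM in shNRF2 DMSO, and 99.2, 10.6 and 103 CPM in shNC GNA, against 20.5, 16.6 and 19.3 CPM in shNC DMSO, and its call was lost with DESeq2 (adjusted p = 0.05) and with limma on log2 FPKM (adjusted p = 0.22 and 0.23). C12orf75 had 49.1 CPM in replicate 1 of shNC GNA against 133 and 104 CPM in replicates 2 and 3.

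**Figure D5:**
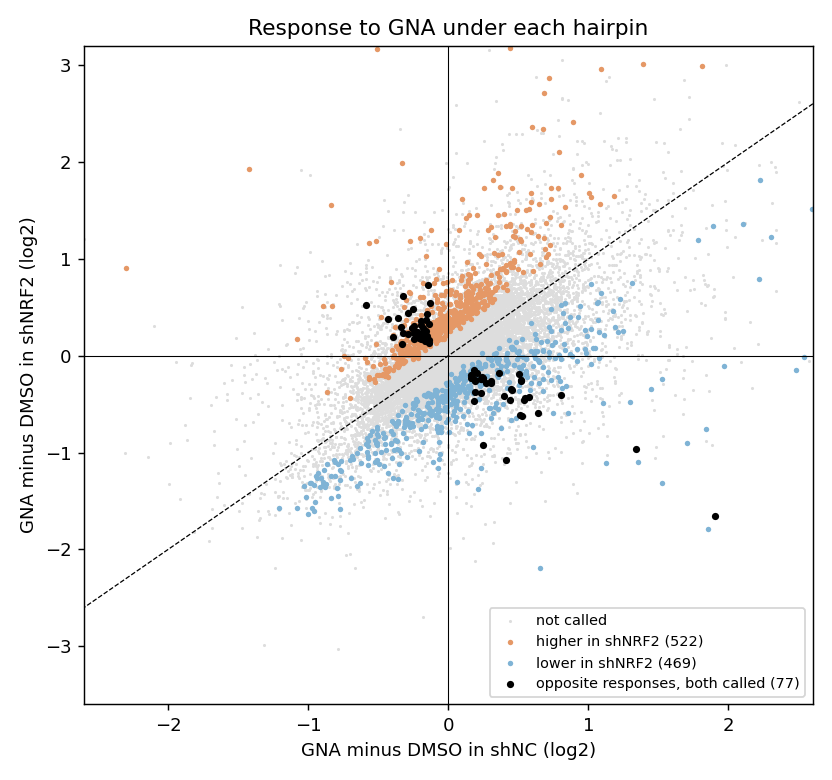
Each dot is a gene, with the GNA response in shNC on the x axis and in shNRF2 on the y axis (log2); the dashed line is equal response, and 37 genes, 10 of them called, lie outside the axes. Orange and blue are the other genes called higher (522) and lower (469) in shNRF2, and black are the 77 with opposite called responses, which lie in the upper left and lower right.

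Classical NRF2 targets were mostly lower in shNRF2 in both treatments. Of 40, 34 were lower in shNRF2 in DMSO and 35 in GNA, while 5 had a higher and 5 a lower GNA response, with a median difference of 0.01. The 5 were 12.5% each way, against 3.58% higher and 3.24% lower of all genes tested. The lower count was 9 with library totals, DESeq2 or no count filter. NQO1, a quinone reductase, averaged 342 ± 6.89 CPM in shNRF2 GNA and 468 ± 19.3 CPM in shNRF2 DMSO, and 606 ± 28.1 CPM in shNC GNA and 714 ± 30.2 CPM in shNC DMSO (SD, n = 3 each). Its difference of -0.22 ± 0.07 (SE, adjusted p = 0.051) lay just past the threshold, and it was called with 8 other settings (adjusted p 0.016 to 0.047 with other scalings, filters, DESeq2 or limma on log2 FPKM) and without replicate 1 of shNRF2 DMSO (adjusted p = 0.041). KEAP1, at 0.26 ± 0.13 (SE, adjusted p = 0.24), and HSF1, at -0.05 ± 0.15 (SE, adjusted p = 0.89), were not called. SLC7A11, the cystine importer, differed by -0.35 ± 0.07 (SE, adjusted p = 0.0019), and FTL, the ferritin light chain, by 0.50 ± 0.08 (SE, adjusted p = 0.00018). ABCB1, the drug efflux pump P-glycoprotein, had 53.4, 57.5 and 50.5 CPM in shNRF2 GNA libraries and 16.6, 15.8 and 18.1 CPM in shNRF2 DMSO libraries. In shNC, ABCB1 had 32, 33.6 and 27.4 CPM with GNA and 23.3, 17.3 and 21.2 CPM with DMSO. It had a higher response by 1.09 ± 0.14 (SE, adjusted p = 9.8e-06). Of the 23 drug efflux and platinum genes, ABCB1 was the 1 with a higher response and 4 had a lower one. As shares of the list these were 4.35% and 17.4%, against 3.58% and 3.24% of all genes tested. The lower count was 2 without replicate 3 of shNC DMSO, replicate 2 of shNC GNA, replicate 2 or 3 of shNRF2 DMSO, or replicate 3 of shNRF2 GNA, and also with limma on log2 FPKM or the replicate block.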

How the data were processed

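Total RNA of 12 libraries was sequenced on the Illumina platform. The authors deposited raw counts and FPKM per gene for 61510 genes. The submitters' processing notes name GRCh38 and DESeq2 with no role; for the aligner, counting tool, strand setting and annotation the sources used here give nothing. Deposited FPKM values equalled counts divided by column total and gene length in 100% of 8215 genes, each within 0.001 of the value (relative). The single-cell data were not analysed here.

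Columns were assigned to groups by their titles. From the deposited counts, genes were filtered with filterByExpr (minimum count 10, minimum total 15); 15653 genes held 99.8% of the counts. Counts were scaled by TMM and fitted with edgeR 4.0.16 in R 4.3.3 (1 coefficient a group, 8 residual degrees of freedom), with Benjamini-Hochberg adjustment over all genes. CPM are on TMM-scaled totals. Differences of CPM gains were tested with limma 3.58.1 without a log. The fit was tested on simulated data. An exact permutation test of 3 against 3 libraries, the layout of the start, end and within-line GNA comparisons, cannot go below 0.1. Without strand, reads of a gene and an antisense or overlapping gene cannot be told apart; HSPA1A and HSPA1B, and SMN1 and SMN2, can exchange reads.

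Members and the 34 gene lists were chosen with earlier results of these data known. Named were fixed genes, the 5 largest differences in each level class and direction, the 6 largest opposite responses each way (at least 5 CPM in the highest group) and at most 3 called members per direction and list; the text names a part of them, some results are not reported here, and list members outside this rule were chosen after their values were seen. Alternatives were other scalings, filters, DESeq2 1.42.0, limma on log2 FPKM, a replicate block, a threshold of 0.01, the CPM scale and each library left out.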

Additional observations from a re-analysis of the deposited data

Results flagged for a closer look

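GNA responses differed between shNRF2 and shNC, by a test of the difference itself, in 561 genes with a higher and 507 with a lower response in shNRF2. Among genes named for called responses of opposite sign, the log2 difference was 0.94 for JMJD6, 0.88 for DNAJA1, 0.82 for MTO1, 0.73 for CACYBP and 0.72 for LGALS1, all rising in shNRF2 and falling in shNC. It was -3.56 for AKAP17A, -2.30 for C12orf75, -1.49 for CCN2, -1.22 for MARCKSL1, -1.21 for FBF1 and -1.17 for THBS1, which fell in shNRF2 and rose in shNC. The libraries of AKAP17A and C12orf75 were uneven, as given above. The AKAP17A call was lost in 3 other settings, DESeq2 and limma on log2 FPKM (adjusted p 0.05 to 0.23). MARCKSL1 had 56.5 CPM in replicate 1 of shNC GNA, against 80.9 and 85.5 CPM in replicates 2 and 3.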

How the results depend on the processing

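Leaving out 1 library at a time gave 381 to 764 genes with a higher and 315 to 673 with a lower response in shNRF2. By level these fits gave 141 to 285 end-only, 300 to 667 start-only, 45 to 77 widened, 87 to 277 narrowed, 75 to 115 crossed and 4 to 27 genes in neither class, with 47 to 104 opposite responses. On the CPM scale they gave 459 to 990 higher and 421 to 721 lower gains. At an adjusted p under 0.01 the counts were 240 higher and 200 lower, 99 end-only, 204 start-only, 25 widened, 57 narrowed, 45 crossed and 24 opposite, with 293 and 297 CPM gains. limma on log2(FPKM + 1) gave 301 higher, 261 start-only, 43 widened, 101 narrowed and 2 in neither class. limma on log2(FPKM + 0.1) gave 274 higher, 329 lower, 137 end-only, 252 start-only, 44 widened, 87 narrowed and 2 in neither class. Without a count filter 32 genes were in neither class and 345 and 375 CPM gains were higher and lower; DESeq2 put 42 in neither class. IGFN1 reversed to -0.22 on log2(FPKM + 1) and to -7.68 CPM, and ULBP1 to 1.58 CPM. The uncalled HSF1 ranged from -0.16 to 0.098 over the fits without 1 library and changed sign without replicate 2 of shNC DMSO (0.0094), replicate 3 of shNC GNA (0.0067), replicate 1 of shNRF2 DMSO (0.098) and replicate 2 of shNRF2 GNA (0.032). The causes were not tested. Replicate numbers did not pair the samples: 0 of 18 same-number pairs had a correlation of deviations over 0.1, and 2 of 12 libraries correlated best with their own number. A fit with the replicate block called 915 genes (479 higher, 436 lower), 908 of them shared with the 1068.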

Other observations

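Genes of other functions also differed. NFKBIA, the NF-kB inhibitor, had a lower response, with a difference of -0.68 ± 0.10 (SE, adjusted p = 3.3e-05), while CXCL8, a chemokine, rose in shNRF2 and fell in shNC with a difference of 0.51 ± 0.10 (SE, adjusted p = 0.001). LCN2, an iron-binding secreted protein, had 184, 189.6 and 181 CPM in shNRF2 GNA and 77.1, 80.1 and 77.6 CPM in shNRF2 DMSO, against 51.2, 54.6 and 55.4 CPM in shNC GNA and 34.7, 34.7 and 34.0 CPM in shNC DMSO. Its difference of 0.60 ± 0.08 (SE, adjusted p = 1.5e-05) widened a gap that was already present in DMSO. MICB, a stress ligand of the NKG2D receptor, differed by 1.30 ± 0.23 (SE, adjusted p = 0.0005) and was apart between the lines in GNA but not called in DMSO.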
